A study of Mus musculus with 17 samples.

Results

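Tail bud progenitor genes were followed as a set of 10 named genes among the 41709 gene symbols measured in whole mouse embryos. They are the Wnt ligand genes Wnt3a and Wnt5b, the Wnt target gene Sp5, the transcription factor genes T (Brachyury), Cdx1, Cdx2, Cdx4, Nkx1-2 and Evx1, and Cyp26a1, which encodes an enzyme that clears retinoic acid. They were chosen by name and not by a measured value, and all 10 symbols were found. The tail bud is the growth zone at the hind end of the embryo. It takes over from the primitive streak and adds spinal cord and presomitic mesoderm, the tissue that segments into somites, while the body axis lengthens. Wnt signalling through beta-catenin keeps its progenitor cells, T and the Cdx factors act with that signal and open the posterior Hox genes, and Cyp26a1 keeps retinoic acid made in the trunk out of the zone.

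Whole C57BL/6J embryos, 17 in all, were sequenced one by one. At E9.5, 4 embryos with a CS allele of Disp1 from the dam and an INDEL allele from the sire (Disp1_CS_INDEL) were compared with 4 wild-type embryos (Disp1_WT). The product of Disp1, Dispatched, sits in the membrane of Hedgehog-producing cells and lets the ligand go. At E8.5, 5 m1J/m1J embryos (Myo10_m1J), bred from parents heterozygous for that Myo10 allele, were compared with 4 wild-type embryos (Myo10_WT), and Myo10 encodes the filopodial motor myosin X. The labels name no Cre or transgene in any group, and litters are not named, so the spread between embryos of a group includes any spread between litters.

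Levels are given as TPM, a relative abundance of transcripts, which is scaled for transcript length and sums to the same total in every library, so that read depth is unknown and the number of embryos limits precision. Between 13103 and 13408 genes reached 1 TPM in each E9.5 embryo, and between 11926 and 12957 in each E8.5 embryo. Myo10 averaged 3.61 ± 0.89 TPM in Myo10_m1J (SD, n = 5) and 25.8 ± 6.02 TPM in Myo10_WT (SD, n = 4), with no overlap between the groups. Disp1 averaged 14.3 ± 1.98 TPM in Disp1_CS_INDEL and 17.5 ± 1.74 TPM in Disp1_WT (SD, n = 4 each), and these groups overlapped. Small structural RNAs such as 7SK and 7SL took between 29.7% and 44.5% of the TPM of the E8.5 libraries and at most 0.0132% of the E9.5 libraries, so TPM levels of the ages are not on one footing. In RNA from a whole embryo, fewer cells of a type and less RNA per cell cannot be told apart.

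Some embryos stood apart from their own group in the tail bud genes, and the genotype and age comparisons below are also given without them. The mean of log2(TPM + 1) over the 10 genes was 2.46, 3.41, 3.90 and 3.92 in Disp1_CS_INDEL replicates 1 to 4. It was 3.95, 3.89, 2.30 and 3.93 in Disp1_WT replicates 1 to 4. At E8.5 the mean was 5.11, 5.11, 5.16, 4.42 and 5.64 in Myo10_m1J replicates 1 to 5, and 3.89, 5.72, 5.44 and 5.39 in Myo10_WT replicates 1 to 4. The low embryos were thus 1 of each Disp1 genotype (Disp1_CS_INDEL replicate 1 and Disp1_WT replicate 3) and 1 wild type of the Myo10 experiment (Myo10_WT replicate 1). Myo10_m1J replicate 4 (4.42) was also lowest in its group, though less far below the rest. Relative to the median of the other Myo10_m1J embryos it read 24.0% for Cdx1, 44.2% for Sp5, 45.3% for Nkx1-2 and 53.6% for T. Its Cyp26a1 was at 103%. The 10 markers of visceral yolk sac endoderm summed to 44.4 to 71.2 TPM in Disp1_CS_INDEL and to 53.3 to 983 TPM in Disp1_WT, of which 983 TPM was replicate 3. At E8.5 they summed to between 800 and 2806 TPM in every embryo, and Myo10_WT replicate 1 held the highest sum. The 8 markers of trophoblast and decidua summed to 743 TPM in Disp1_WT replicate 3, against 7.88 to 30.7 TPM in the other E9.5 embryos. Myo10_m1J replicate 2 read 216 TPM for these markers, against 1.69 to 29.4 TPM in the other E8.5 embryos. Disp1_CS_INDEL replicate 1, also low in tail bud genes, read 71.2 and 12.1 TPM for these lists, both within the range of the E9.5 embryos other than Disp1_WT replicate 3. The part of such transcripts in the results for Disp1_WT replicate 3 was not tested.

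**Figure D1:**
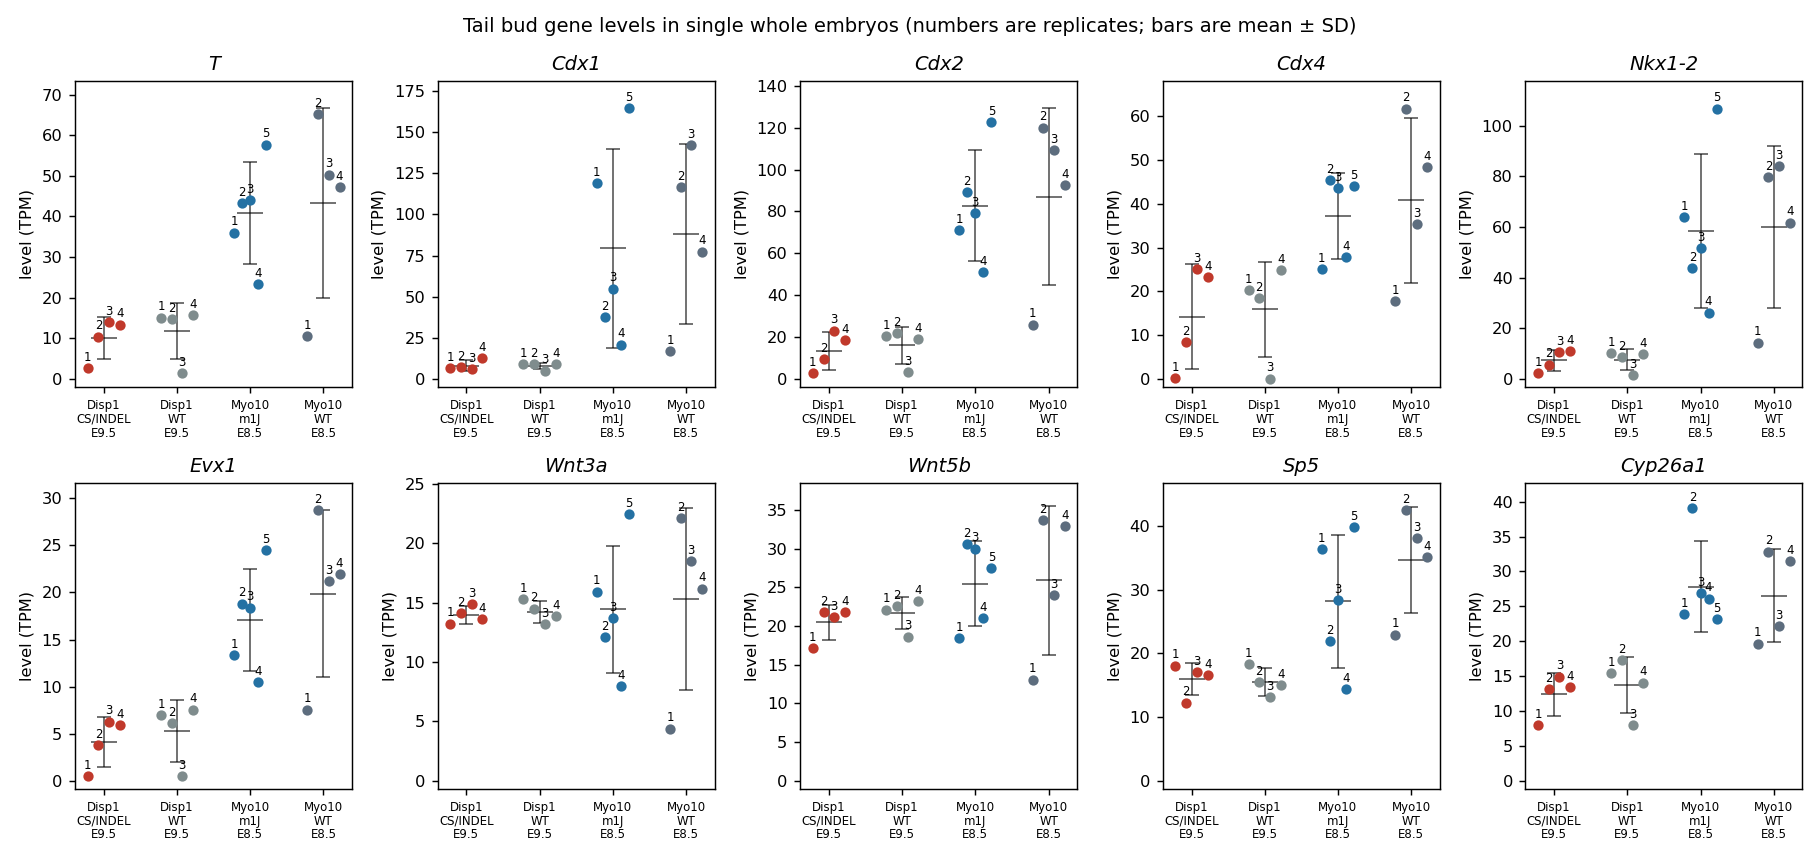
TPM of each of the 10 tail bud genes in every embryo (numbered points, the numbers being replicates), with the mean and SD of the 4 Disp1_CS_INDEL, 4 Disp1_WT, 5 Myo10_m1J and 4 Myo10_WT embryos. Cdx4 is at 0.243 TPM in Disp1_CS_INDEL replicate 1 and 0.065 TPM in Disp1_WT replicate 3, whereas Wnt3a stays between 13.2 and 15.3 TPM in all 8 E9.5 embryos.

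Promoter sequences are shown for T, Sp5 and Cyp26a1 because the bases just before their starts hold words of the kind read by Wnt or retinoic acid signalling, both active around the tail bud. Each sequence is the 250 bases before the annotated start in RefSeq on build GRCm38.p6, read 5′ to 3′ on the gene's strand. The deposited TPM values were made on another build (GRCm39, per the submitters' processing notes) and carry no coordinates. Capitals mark the TCF/LEF words (CTTTGAA and also CTTTGAT, or with a different end CTTTGTA and also CTTTGTT) on either strand, words of the kind through which beta-catenin acts, or, in Cyp26a1, a direct repeat of AGTTCA with 5 bases between the copies on either strand, the form of a retinoic acid receptor site. The motifs do not overlap in these windows. Sp5 lies at chr2:70474673-70474922 (plus strand), T at chr17:8434173-8434422 (plus strand) and Cyp26a1 at chr19:37697558-37697807 (plus strand).
Sp5: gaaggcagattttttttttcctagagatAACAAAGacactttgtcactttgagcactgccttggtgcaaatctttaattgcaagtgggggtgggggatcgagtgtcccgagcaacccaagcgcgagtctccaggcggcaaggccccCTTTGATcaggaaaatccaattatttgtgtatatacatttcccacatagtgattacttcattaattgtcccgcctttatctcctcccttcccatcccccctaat
T: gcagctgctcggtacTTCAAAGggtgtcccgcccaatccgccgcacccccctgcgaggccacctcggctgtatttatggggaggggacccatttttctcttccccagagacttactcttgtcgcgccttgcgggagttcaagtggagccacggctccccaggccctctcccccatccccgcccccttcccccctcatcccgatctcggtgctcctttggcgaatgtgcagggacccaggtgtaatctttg
Cyp26a1: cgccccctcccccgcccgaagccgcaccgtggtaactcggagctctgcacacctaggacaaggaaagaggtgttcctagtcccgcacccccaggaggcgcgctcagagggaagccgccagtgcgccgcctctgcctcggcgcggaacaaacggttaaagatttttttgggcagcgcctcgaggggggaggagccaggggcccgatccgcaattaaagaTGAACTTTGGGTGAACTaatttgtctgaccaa
Sp5 holds 2 TCF/LEF words, one read as AACAAAG on this strand. T holds 1, read as TTCAAAG, from 235 to 229 bases before the start. In Cyp26a1 the direct repeat, read from the other strand, lies 32 to 16 bases before the start. A TCF/LEF word was in 14.8% of the 32851 RefSeq windows of this length, and the direct repeat in 0.0213% of them (7 windows). The repeat was searched only as this exact word, the one that Cyp26a1 holds. Its share is therefore not that of retinoic acid receptor sites in general. Windows were read for 9 of the 10 genes, and apart from these the words occurred only in 1 of the 3 windows of Wnt5b. A match of letters is a description, and the deposited levels do not show whether a factor binds there.

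The Wnt ligands and Sp5 varied little among the E9.5 embryos. Wnt3a, the ligand needed for outgrowth of the tail and also made in the dorsal neural tube, read 13.2, 14.1, 14.9 and 13.6 TPM in Disp1_CS_INDEL replicates 1 to 4 and 15.3, 14.5, 13.2 and 13.8 TPM in Disp1_WT replicates 1 to 4. Wnt5b, a second Wnt ligand, read 17.1, 21.8, 21.1 and 21.8 TPM in Disp1_CS_INDEL and 22.1, 22.6, 18.6 and 23.2 TPM in Disp1_WT. For both ligands Disp1_CS_INDEL replicate 1 and Disp1_WT replicate 3 were the lowest embryos. The margin was small for Wnt3a and wider for Wnt5b (17.1 and 18.6 TPM, against 21.1 to 23.2 TPM in the others). Sp5, a zinc finger factor induced by Wnt signalling, read 18.1, 12.3, 17.04 and 16.5 TPM in Disp1_CS_INDEL and 18.3, 15.5, 13.2 and 15.0 TPM in Disp1_WT. Its lowest embryo was Disp1_CS_INDEL replicate 2, and the groups overlapped for all 3 genes.

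The transcription factor genes of the streak and tail bud, by contrast, spanned a wide range within each E9.5 genotype. T, the T-box factor of streak, notochord and tail bud, read 2.62, 10.4, 13.99 and 13.4 TPM in Disp1_CS_INDEL replicates 1 to 4 and 15.1, 14.8, 1.32 and 15.7 TPM in Disp1_WT replicates 1 to 4. Evx1, a homeobox gene of the posterior streak and tail bud, read 0.497, 3.77, 6.28 and 5.88 TPM in Disp1_CS_INDEL and 6.98, 6.12, 0.466 and 7.54 TPM in Disp1_WT. The table also lists Evx1os, an antisense neighbour of Evx1, and as the library kit does not mark strand, reads where they overlap cannot be told apart. Nkx1-2, a homeobox gene of the caudal epiblast in which neural and mesodermal progenitors lie, read 2.25, 5.63, 10.5 and 10.9 TPM in Disp1_CS_INDEL and 10.2, 8.66, 1.62 and 9.93 TPM in Disp1_WT. In each genotype 1 embryo lay far below the rest, and Disp1_CS_INDEL replicate 2 lay between.

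The 3 caudal-type homeobox genes, which pattern the posterior axis, differed in how far they set the low embryos apart. Cdx4 read 0.243, 8.36, 25.0 and 23.3 TPM in Disp1_CS_INDEL and 20.3, 18.4, 0.065 and 24.9 TPM in Disp1_WT. Cdx2 read 2.59, 9.51, 23.1 and 18.4 TPM in Disp1_CS_INDEL and 20.3, 21.9, 3.08 and 19.1 TPM in Disp1_WT. Cdx1 read 6.38, 7.18, 5.90 and 12.8 TPM in Disp1_CS_INDEL and 9.13, 8.91, 5.03 and 8.85 TPM in Disp1_WT. Cdx4 was thus near absent in the low embryos, Cdx2 was present at a reduced level, and Cdx1 was low in the Disp1_WT embryo only. Cyp26a1 read 7.97, 13.2, 14.9 and 13.4 TPM in Disp1_CS_INDEL and 15.4, 17.3, 7.98 and 14.05 TPM in Disp1_WT, with the same 2 embryos lowest.

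Relative to the median of the other embryos of its group, Disp1_CS_INDEL replicate 1 read 1.04% for Cdx4, 8.45% for Evx1, 14.1% for Cdx2, 19.6% for T and 21.4% for Nkx1-2. Disp1_WT replicate 3 read 0.320% for Cdx4, 6.67% for Evx1, 15.2% for Cdx2, 8.77% for T and 16.3% for Nkx1-2. In both embryos Cdx4 was the lowest of the 10 by this measure and Evx1 the next, although their genotypes differ. Cyp26a1 was at 59.5% in Disp1_CS_INDEL replicate 1 and 51.9% in Disp1_WT replicate 3, and Wnt3a was at 93.9% and 90.9%. Wnt5b was at 78.5% in the Disp1_CS_INDEL embryo and 82.3% in the Disp1_WT embryo. These were the lowest 2 of the 8 E9.5 embryos for 8 of the 10 genes, all but Cdx1 and Sp5, against 2.19% of the 13294 genes tested at that age; the embryos had been singled out for their low tail bud genes, so this count describes them and tests nothing. Over all genes, 0.918% were under 50% of the other embryos in Disp1_CS_INDEL replicate 1 and 0.787% in Disp1_WT replicate 3.

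Disp1_CS_INDEL replicate 2 was low in a part of the set. It read 35.9% of the other embryos of its group for Cdx4, 51.6% for Cdx2, 53.5% for Nkx1-2, 64.1% for Evx1, 71.9% for Sp5 and 78.0% for T. Cyp26a1 (98.4%), Wnt5b (103%), Wnt3a (104%) and Cdx1 (113%) were at the level of the other embryos. In this embryo 0.901% of all genes were under 50%.

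**Figure D2:**
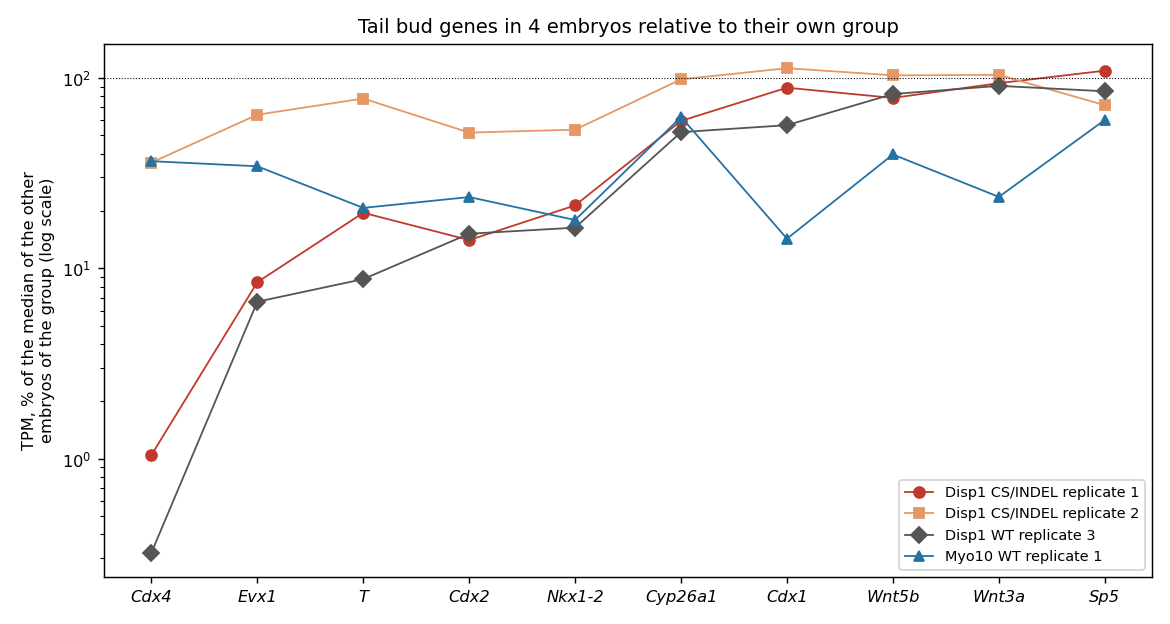
TPM of each tail bud gene as a percentage of the median of the other embryos of the same group, on a log axis, for 4 embryos (Disp1_CS_INDEL replicates 1 and 2, Disp1_WT replicate 3 and Myo10_WT replicate 1). Myo10_m1J replicate 4, also low in its group, is not drawn. Disp1_CS_INDEL replicate 1 and Disp1_WT replicate 3 are low in Cdx4, Evx1, T, Cdx2 and Nkx1-2 and near 100% in Wnt3a, whereas in Myo10_WT replicate 1 Cdx1 (14.3%) and Nkx1-2 (17.9%) are lowest.

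Genes expressed along the body axis were read in the same embryos. Msgn1 and Tbx6, genes of the presomitic mesoderm, were near 0 in the low E9.5 embryos. Msgn1, which drives cells out of the progenitor state, was listed at 0 in Disp1_CS_INDEL replicate 1 and read 11.9, 18.6 and 12.6 TPM in replicates 2 to 4, against 17.9, 15.6, 0.104 and 17.8 TPM in Disp1_WT replicates 1 to 4. Tbx6, a T-box factor that sets mesodermal fate, read 0.491, 8.40, 11.3 and 9.91 TPM in Disp1_CS_INDEL and 13.2, 11.9, 0.495 and 12.3 TPM in Disp1_WT. Of the 11 genes of the presomitic and segmentation list, the 10 tested had a median of 43.9% of the other embryos in Disp1_CS_INDEL replicate 1 and 51.9% in Disp1_WT replicate 3. Lfng, a glycosyltransferase of the segmentation clock that is also expressed elsewhere, read 52.0 TPM in Disp1_CS_INDEL replicate 1 and 49.0 TPM in Disp1_WT replicate 3, against 44.2 to 51.7 TPM in the other E9.5 embryos.

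The Hox genes of groups 9 to 13, which mark posterior levels of the body axis, had low list medians in the same embryos, and the lists nearer the head had medians near the other embryos. Hoxc10 read 1.46, 40.8, 54.6 and 46.8 TPM in Disp1_CS_INDEL and 49.9, 50.5, 0.134 and 48.9 TPM in Disp1_WT. Hoxb9 read 113, 103, 109 and 103 TPM in Disp1_CS_INDEL and 106, 107, 99.9 and 101 TPM in Disp1_WT, with no low embryo. The 13 tested genes of groups 9 to 13 had a median of 16.6% of the other embryos in Disp1_CS_INDEL replicate 1 and 21.1% in Disp1_WT replicate 3. Groups 5 to 8 stood at 102% and 105% in these embryos, groups 1 to 4 at 115% and 97.8%, and head and brain genes at 121% and 111%. Single genes of these lists were low, among them Hoxd1 at 49.4% in Disp1_CS_INDEL replicate 1 and 38.9% in Disp1_WT replicate 3, and Hoxb1 at 73.9% in Disp1_CS_INDEL replicate 1 and 63.9% in Disp1_WT replicate 3. In Disp1_CS_INDEL replicate 2, groups 9 to 13 stood at 112%, and Hoxd12, at the caudal end of its cluster, read 8.27 TPM, against 0.0269 to 4.37 TPM in the other E9.5 embryos. The partial tail bud level of that embryo therefore came without a low posterior Hox level.

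Genes that report the signals themselves were read in the same way. The Wnt feedback and target list (Axin2, Lef1, Nkd1 and others) had a median of 105% of the other embryos in Disp1_CS_INDEL replicate 1 and 86.3% in Disp1_WT replicate 3. In Disp1_WT replicate 3 Dkk1 (69.1%), Nkd2 (69.4%), Lef1 (69.8%) and Rnf43 (76.7%) lay under the lowest 5% of all genes, which ended at 78.7%, whereas in Disp1_CS_INDEL replicate 1 the lowest gene of the list was at 93.0%. The retinoic acid list (Aldh1a2, Rarb, Cyp26b1 and others) stood at 105% and 95.2%. Of the other tail bud and streak genes, Fgf17 was at 40.1% and 45.1%, and the list median was 88.5% in Disp1_CS_INDEL replicate 1 and 74.7% in Disp1_WT replicate 3. Most genes of these lists are also expressed outside the tail bud.

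**Figure D3:**
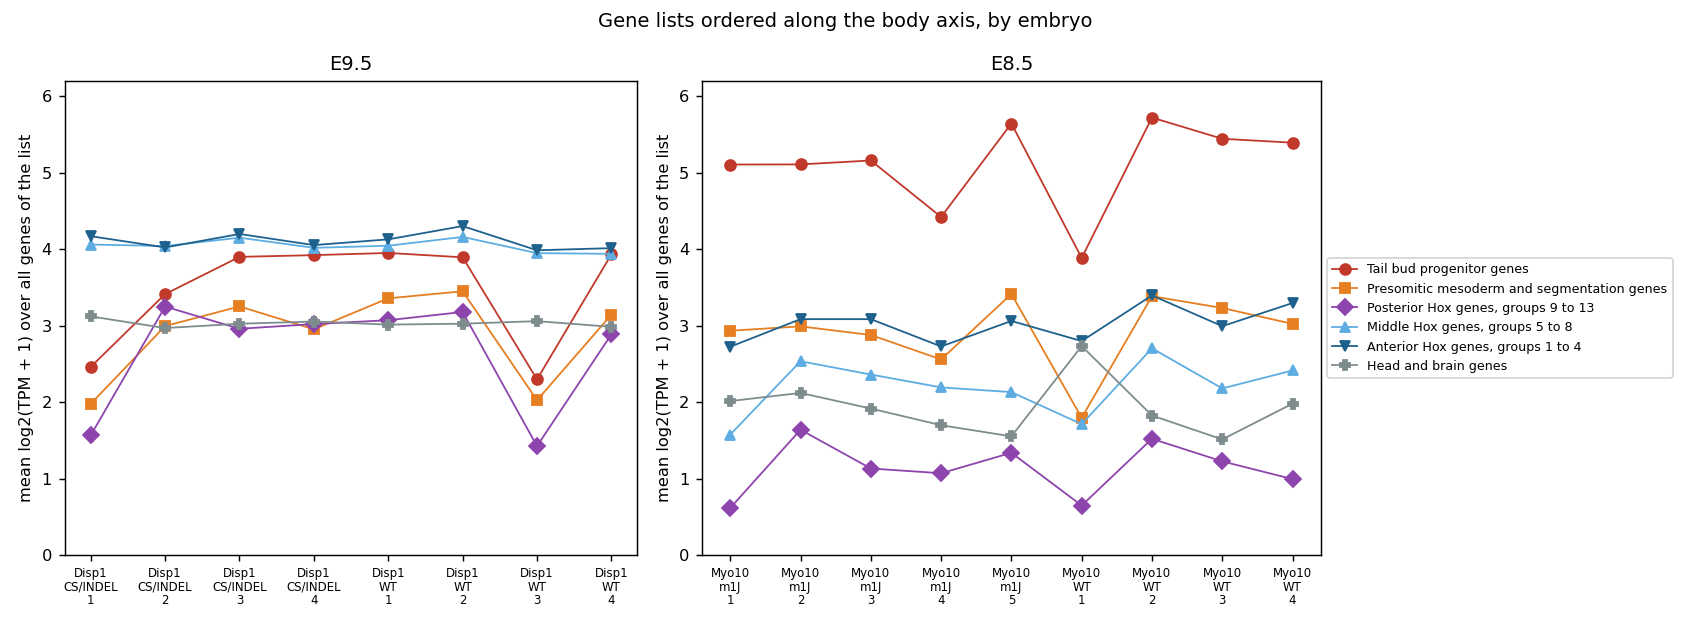
Mean log2(TPM + 1) over all genes of 6 lists in each E9.5 embryo (left panel, Disp1_CS_INDEL then Disp1_WT) and each E8.5 embryo (right panel, Myo10_m1J then Myo10_WT); lines join the points of a list. In Disp1_CS_INDEL replicate 1 and Disp1_WT replicate 3 the tail bud, presomitic and posterior Hox lists are low and the other lists are level, and in Myo10_WT replicate 1 the head list is high.

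The Disp1 comparison asks whether tail bud genes differ in embryos with the CS and INDEL alleles. None of the 10 passed limma's test at a Benjamini-Hochberg adjusted p of 0.05 over all 13294 genes, 0 had an unadjusted p under 0.05, and none had separate groups. The background was 0.00752% of genes called higher and 0.0226% called lower, with separate groups in 0.895% (higher) and 0.654% (lower). After median-of-ratios scaling it was 0.015% higher and 0.0451% lower, and again none of the 10 passed. Differences ran from -0.29 (Cdx2) to 0.04 (Sp5) on the log2(TPM + 1) scale, a scale that understates changes of low genes, and 9 of 10 were negative. Their median was -0.06, beside 0.01 over all genes tested. The intervals tell the genes apart. For Wnt3a the 95% interval was -0.18 to 0.13, for Wnt5b -0.29 to 0.13 and for Sp5 -0.24 to 0.32, whereas for Cdx4 it was -2.72 to 2.40 and for T -1.49 to 1.42.

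The sign of the Disp1 comparison depended on single embryos, the low ones and others. The median of the 10 differences was 0.03, 0.02 and 0.01 without Disp1_WT replicate 1, 2 and 4. It stayed negative without Disp1_CS_INDEL replicate 2, 3 or 4. Without Disp1_CS_INDEL replicate 1, 9 of 10 differences were positive with a median of 0.17, and without Disp1_WT replicate 3 all 10 were negative with a median of -0.43. Without both, all 10 were negative with a median of -0.14, and T read -0.26 (SE 0.11, unadjusted p = 0.0456, limma adjusted p = 0.9997) and Evx1 -0.34 (SE 0.17, unadjusted p = 0.0698 by limma). None passed the adjusted test in any of these fits. In the comparison with all 8 embryos no gene of the other 13 lists passed either, and the presomitic list had 9 of 10 tested genes negative with a median of -0.19.

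At E8.5 the tail bud genes were expressed at higher TPM and varied from embryo to embryo in both genotypes. T read 36.0, 43.3, 44.1, 23.4 and 57.7 TPM in Myo10_m1J replicates 1 to 5 and 10.4, 65.3, 50.3 and 47.3 TPM in Myo10_WT replicates 1 to 4. Evx1 read 13.3, 18.8, 18.4, 10.5 and 24.5 TPM in Myo10_m1J and 7.54, 28.7, 21.2 and 21.96 TPM in Myo10_WT. Nkx1-2 read 63.9, 43.6, 51.5, 26.1 and 107 TPM in Myo10_m1J and 14.3, 79.8, 84.0 and 61.7 TPM in Myo10_WT. In all 3 genes Myo10_WT replicate 1 was lowest and Myo10_m1J replicate 4 next.

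Among the Cdx genes, Cdx1 had the widest range and Cdx4 the narrowest. Cdx1 read 119, 37.6, 54.9, 20.9 and 164 TPM in Myo10_m1J and 16.7, 117, 142 and 77.4 TPM in Myo10_WT. Cdx2 read 71.1, 89.1, 79.2, 51.1 and 123 TPM in Myo10_m1J and 25.9, 120, 109 and 92.4 TPM in Myo10_WT. Cdx4 read 25.1, 45.4, 43.7, 27.9 and 44.1 TPM in Myo10_m1J and 17.7, 61.8, 35.3 and 48.5 TPM in Myo10_WT. Myo10_m1J replicate 1 was among the higher embryos for Cdx1 and among the lower for Cdx4, so these genes did not rank the embryos alike.

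The ligands and the remaining genes followed one or the other of these orders. Wnt3a read 15.9, 12.1, 13.7, 7.98 and 22.4 TPM in Myo10_m1J and 4.39, 22.2, 18.5 and 16.2 TPM in Myo10_WT. Wnt5b read 18.4, 30.6, 30.0, 21.0 and 27.5 TPM in Myo10_m1J and 13.05, 33.7, 24.0 and 32.9 TPM in Myo10_WT. Sp5 read 36.4, 21.9, 28.3, 14.3 and 39.8 TPM in Myo10_m1J and 22.9, 42.4, 38.1 and 35.1 TPM in Myo10_WT. The lowest embryo was Myo10_WT replicate 1 for both ligands and Myo10_m1J replicate 4 for Sp5. Cyp26a1 read 23.9, 39.1, 26.8, 26.1 and 23.2 TPM in Myo10_m1J and 19.7, 32.9, 22.1 and 31.5 TPM in Myo10_WT, with Myo10_m1J replicate 2 highest.

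Myo10_WT replicate 1 was lowest of the 9 E8.5 embryos for 9 of the 10 genes, against 1.54% of the 12560 genes tested at that age; this embryo too was singled out after its values were seen. Relative to the median of the other Myo10_WT embryos it read 14.3% for Cdx1, 17.9% for Nkx1-2, 20.8% for T, 23.7% for Cdx2, 23.7% for Wnt3a and 34.3% for Evx1. Cdx4 (36.5%), Wnt5b (39.6%), Sp5 (60.2%) and Cyp26a1 (62.3%) were less reduced. Unlike the low E9.5 embryos, it was low in Wnt3a and still had Cdx4. Its presomitic list stood at 18.3% of the other embryos. The Hox lists stood at 32.3% for groups 9 to 13 (7 of 16 genes), 41.6% for groups 5 to 8 and 72.0% for groups 1 to 4. Head and brain genes stood at 245% (8 of 14 genes, from 80.6% to 293%). Genes whose median in the other embryos was under 1 TPM were left out. Over all genes this embryo had a median of 117%, with 5th and 95th centiles of 84.6% and 174%. Otx2, a forebrain and midbrain factor, read 24.3 TPM in this embryo, against 8.42 to 16.1 TPM in Myo10_m1J and 8.23 to 11.3 TPM in the other Myo10_WT embryos.

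The Myo10 comparison asks whether tail bud genes differ in embryos that lack most Myo10 transcript. None of the 10 passed limma's test over all 12560 genes, 0 had an unadjusted p under 0.05, and none had separate groups; the background was 0% of genes called higher and 0.00796% called lower, with separate groups in 0.0318% (higher) and 0.963% (lower). Differences ran from -0.34 (Sp5, SE 0.26, 95% interval -0.91 to 0.23, limma adjusted p = 0.482) to 0.12 (T, SE 0.42, 95% interval -0.80 to 1.04). The median was 0.04, beside -0.16 over all genes. After median-of-ratios scaling, which moved the median of all genes to 0.01, 9 of 10 differences were positive with a median of 0.22, and none passed, against 0.00797% of genes called lower. Without Myo10_WT replicate 1 all 10 were negative with a median of -0.44, and none passed. Without Myo10_m1J replicate 4, 9 of 10 were positive with a median of 0.16, and again none passed.

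**Figure D4:**
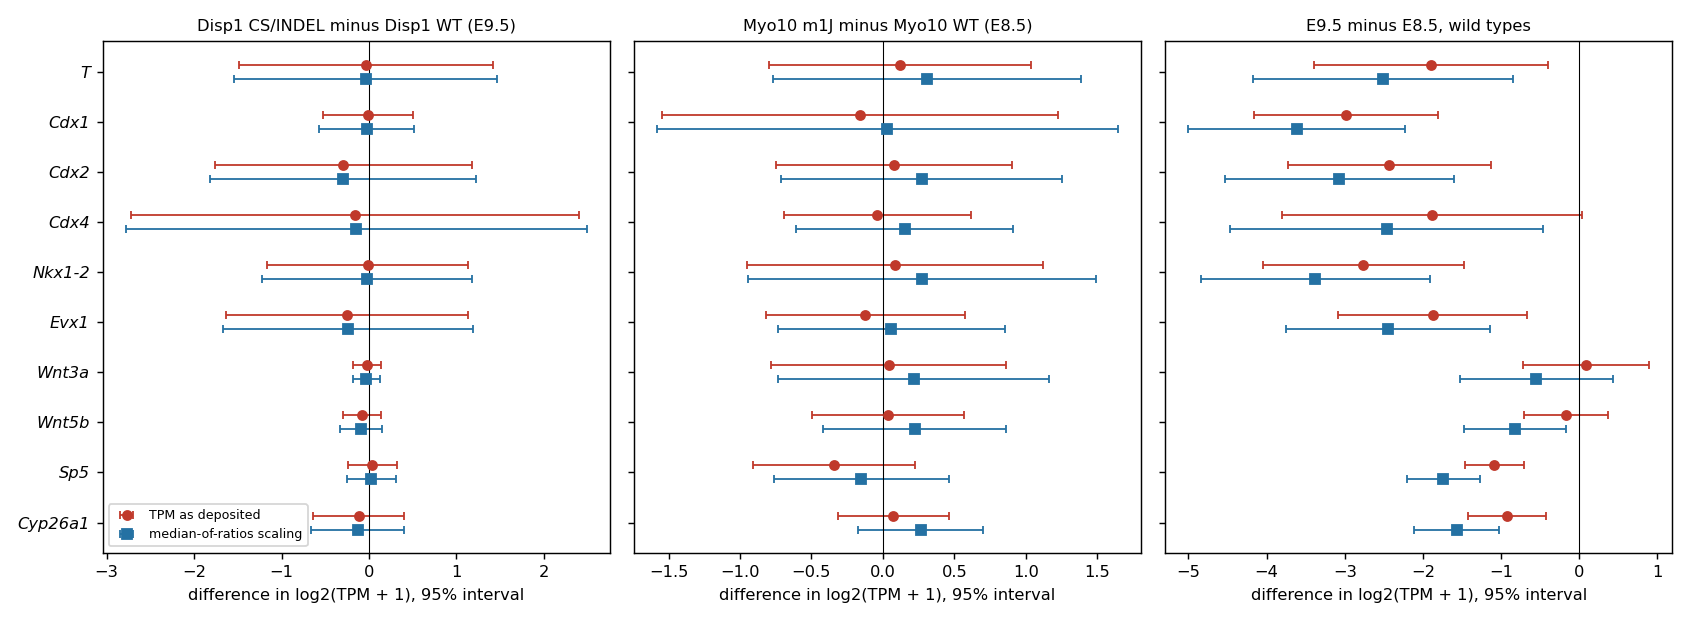
Difference in log2(TPM + 1) with its 95% interval for the 10 tail bud genes in Disp1_CS_INDEL minus Disp1_WT, Myo10_m1J minus Myo10_WT, and the E9.5 minus the E8.5 wild types, for TPM as deposited (circles) and after median-of-ratios scaling (squares); each panel has its own scale. All intervals of the mutant comparisons include 0, and in the age panel those of Cdx1, Nkx1-2, Cdx2, T, Evx1, Sp5 and Cyp26a1 lie below 0 on either scale.

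Whether the 2 genotype effects differ was tested over all 17 embryos together. None of the 10 genes passed (limma), and 0 had an unadjusted p under 0.05. Of all 13910 genes tested, 2 were called higher and 1 lower, and 689 had an unadjusted p under 0.05 by limma. Sp5 had the smallest adjusted p (0.600), with the Disp1 effect 0.38 above the Myo10 effect (SE 0.34). The 95% intervals were wide, from -0.76 to 0.53 for Wnt5b and from -2.79 to 2.55 for Cdx4. The median of the 10 differences was -0.12 over all embryos, 0.26 without Disp1_CS_INDEL replicate 1, -0.51 without Disp1_WT replicate 3 and 0.33 without Myo10_WT replicate 1, and none passed in these fits.

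Across the 9 E8.5 embryos most tail bud genes moved together. Of the 45 pairs, 31 had a positive correlation of log2(TPM + 1) with an adjusted p under 0.05 (exact permutation of all 362880 orderings, two-sided, Benjamini-Hochberg over the 45 pairs), and 27 did so by rank. T and Cdx2 had r = 0.99 and rho = 0.97, T and Evx1 r = 0.96 and rho = 0.97, and Nkx1-2 and Wnt3a r = 0.99 and rho = 0.97, each with an exact permutation adjusted p of 0.000149 for r. With the 2 embryos farthest from the median of the gene left out, these pairs kept r of 0.94, 0.97 and 0.95. Of the 22 pairs with r of at least 0.8, 9 stayed at or above it whichever gene chose the 2 embryos left out. The other 13, such as T and Cdx1 (r = 0.83, and 0.42 without 2 embryos), rest in part on the lowest or highest embryos. Over all 45 pairs, 7 had a negative r in at least 1 of these reductions.

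Within this shared movement some genes kept closer company, as grouped here after their values were seen. Cdx1 went with Nkx1-2 (r = 0.96, 0.94 without 2 embryos) and Sp5 (r = 0.90, 0.93 without the 2 farthest in Cdx1). Cdx4 went with Wnt5b (r = 0.98, 0.95 without 2 embryos), and Wnt5b with Cyp26a1 (r = 0.76, exact permutation adjusted p = 0.0273). The groups were not fully apart. Nkx1-2 passed with Cdx4 (r = 0.71, exact permutation adjusted p = 0.0467), but not with Wnt5b (r = 0.67) or Cyp26a1 (r = 0.22). Wnt3a, which also went with Cdx1 (r = 0.94), passed with Cdx4 (r = 0.77) and Wnt5b (r = 0.73), but not with Cyp26a1 (r = 0.31). By rank neither Nkx1-2 nor Wnt3a passed with any of them. Sp5 had r of 0.46, 0.37 and -0.05 with Cdx4, Wnt5b and Cyp26a1, and did not pass. For Cdx1, r was 0.54 with Cdx4, 0.48 with Wnt5b and 0.02 with Cyp26a1, and none of these passed. Without the 2 embryos farthest in Cdx1 these pairs had r of -0.22, -0.41 and -0.75. With the 2 farthest in the partner gene left out instead, r was 0.50, 0.33 and -0.23. The sign for Cdx1 with Cdx4 and with Wnt5b thus depended on which gene chose the embryos. These libraries vary in structural RNA, which all their values share, and on scaled values the median r of the pairs was 0.83, beside 0.80 as deposited. Each of 7 genes had r of at least 0.8 with the mean of the other 9, and so did 0.964% of the other 12550 genes with the mean of all 10. On scaled values these were 7 genes and 3.46% of the other genes. Wnt8a, a ligand of the primitive streak, read 29.7, 4.70, 6.44, 1.32 and 34.3 TPM in Myo10_m1J and 5.41, 28.6, 26.8 and 6.52 TPM in Myo10_WT, and its 4 highest embryos were the 4 highest for Cdx1. At E9.5 no pooled correlation between the genes is given, because the 2 low embryos form a cluster of their own.

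**Figure D5:**
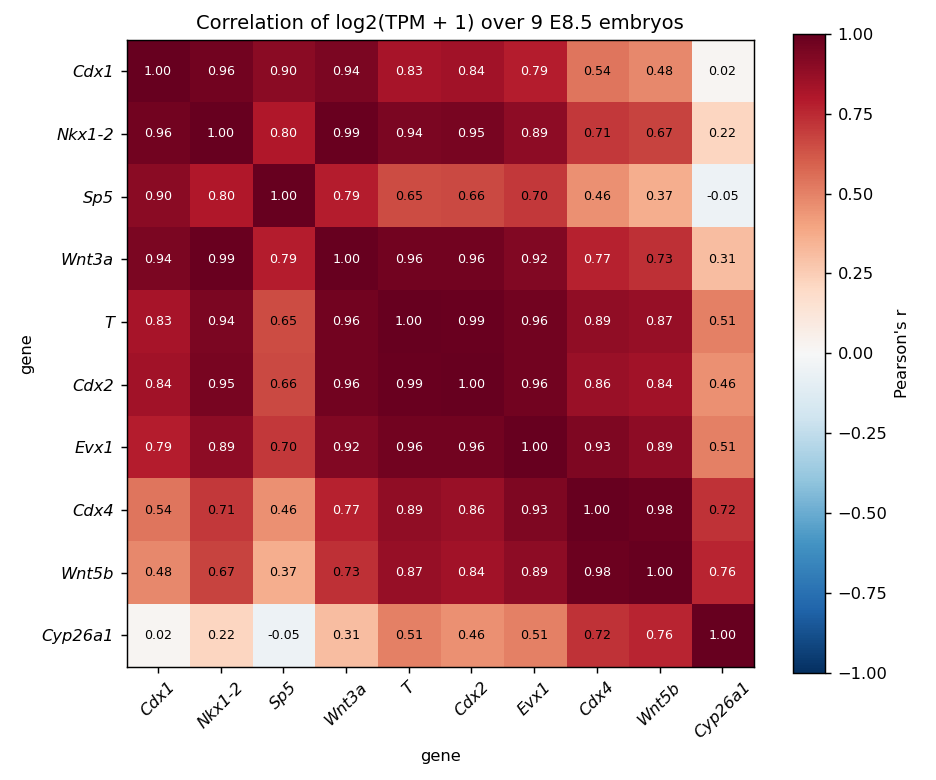
Pearson's r of log2(TPM + 1) between the tail bud genes over the 9 E8.5 embryos (5 Myo10_m1J and 4 Myo10_WT), as colour from -1 to 1 with the value in each cell. Cdx1, Nkx1-2, Sp5 and Wnt3a (0.79 to 0.99) stand together at upper left and Cdx4 and Wnt5b (0.98) at lower right, and Cyp26a1 has its lowest values with Cdx1 (0.02) and Sp5 (-0.05).

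The wild types of the 2 experiments give the tail bud genes a day apart, E9.5 (Disp1_WT) over E8.5 (Myo10_WT). Age and experiment cannot be told apart, and neither can the library content described above. In limma's fit of these 8 embryos 7 of the 10 genes were lower at E9.5 and none higher, against 10.2% of the 13397 genes tested called lower and 69.4% called higher; 5 had separate groups with E9.5 below (Cdx1, Cdx2, Nkx1-2, Sp5 and Cyp26a1), against 7.96% of genes, and 66.1% of genes had separate groups with E9.5 above. Their median was -1.88, beside 0.62 over all genes. After median-of-ratios scaling the median of all genes was 0.01, and 9 of the 10 were lower, against 36.2% of genes called lower and 36.4% called higher.

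Cdx1 changed most, with 7.98 ± 1.97 TPM in the E9.5 and 88.2 ± 54.6 TPM in the E8.5 wild types (SD, n = 4 each; log2 difference -2.98, SE 0.53, limma adjusted p = 0.000323). Nkx1-2 averaged 7.61 ± 4.05 TPM at E9.5 and 60.0 ± 31.9 TPM at E8.5 (-2.76, SE 0.58), and Cdx2 16.1 ± 8.74 TPM at E9.5 and 86.9 ± 42.2 TPM at E8.5 (-2.43, SE 0.59). T (-1.89, SE 0.68, limma adjusted p = 0.0236), Evx1 (-1.88, SE 0.55), Sp5 (-1.09, SE 0.17) and Cyp26a1 (-0.92, SE 0.23) also fell. T read -1.20 without Disp1_WT replicate 3 and no longer passed without Myo10_WT replicate 2 or replicate 3, with limma adjusted p up to 0.0836. Cdx4 averaged 15.9 ± 10.9 TPM at E9.5 and 40.8 ± 18.8 TPM at E8.5 and did not pass (-1.88, SE 0.87, limma adjusted p = 0.0658); without Disp1_WT replicate 3 it read -0.79 (limma adjusted p = 0.0425), and it also passed without Disp1_WT replicate 1 or 4 or Myo10_WT replicate 1.

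The ligands differed least. Wnt3a averaged 14.2 ± 0.91 TPM at E9.5 and 15.3 ± 7.69 TPM at E8.5 (log2 difference 0.09, 95% interval -0.72 to 0.90), and Wnt5b 21.6 ± 2.07 TPM at E9.5 and 25.9 ± 9.64 TPM at E8.5 (-0.17, 95% interval -0.71 to 0.37). After scaling Wnt5b was lower at E9.5 (-0.82, SE 0.29, limma adjusted p = 0.0285), and Wnt3a turned to -0.55 and did not pass (limma adjusted p = 0.275). Without Myo10_WT replicate 1 alone, Wnt3a (-0.38) and Wnt5b (-0.45) passed as lower, as did 1071 of all 13128 genes tested. Without the 2 low wild types, a fit added after seeing the data, all 10 genes were lower at E9.5. They ran from -0.35 (Wnt3a) to -3.46 (Cdx1), with a median of -1.43, beside 0.66 over all genes. In that fit 934 of 12256 genes were called lower and 8779 higher.

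The order of the genes by mean TPM differed with age. In Disp1_CS_INDEL Wnt5b came first (20.5 ± 2.25 TPM) and Evx1 last (4.11 ± 2.65 TPM), and the same genes stood at the ends in Disp1_WT (21.6 ± 2.07 and 5.28 ± 3.26 TPM). In Myo10_m1J Cdx2 (82.6 ± 26.4 TPM) and Cdx1 (79.4 ± 60.4 TPM) led and Wnt3a was last (14.4 ± 5.34 TPM), and in Myo10_WT Cdx1 (88.2 ± 54.6 TPM) and Cdx2 (86.9 ± 42.2 TPM) led and Wnt3a was again last (15.3 ± 7.69 TPM). No pair of neighbours in these orders had separate ranges.

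Other genes of the hind end were read between the same ages, against the 69.4% of all genes called higher and 10.2% called lower (36.4% and 36.2% after scaling). Of the 16 posterior Hox genes, 10 were tested and 9 were higher at E9.5 with none lower (6 higher after scaling); Hoxc10 averaged 37.4 ± 24.8 TPM at E9.5 and 0.667 ± 0.53 TPM at E8.5. Of the 10 tested presomitic genes 2 were higher and none lower, and Lfng averaged 48.7 ± 2.68 TPM at E9.5 and 18.8 ± 3.51 TPM at E8.5. Of 8 tested other tail bud and streak genes 2 were higher and 3 lower; Wnt8a averaged 0.626 ± 0.071 TPM at E9.5 and 16.8 ± 12.6 TPM at E8.5, and Gdf11, which ends trunk formation, 34.1 ± 4.51 TPM at E9.5 and 9.18 ± 1.93 TPM at E8.5. The Wnt feedback list had 5 of 12 higher and 1 lower (5 higher and 6 lower of 11 after scaling), so its balance depended on the scale.

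The genes outside the set whose level was most like its mean were ranked by Pearson's r of log2(TPM + 1), at each age apart. Over the 8 E9.5 embryos these were Ifitm1, Naaa, Evx1os, 2610528A11Rik, Tbx6, Peli3, Hoxb5os, Kcnab3, Msgn1 and Hoxb1, a ranking that rests on the 2 low embryos, so its r values are not given. Ifitm1 read 25.8, 59.0, 81.7 and 85.6 TPM in Disp1_CS_INDEL and 76.9, 74.3, 24.1 and 86.9 TPM in Disp1_WT. Over the 9 E8.5 embryos they were Lhpp, Etv4, Chst7, Fzd10, Efna3, Rnf213, Msgn1, S1pr5, Laptm4b and Nt5e, with r between 0.971 and 0.996. These r values are the highest of 12481 genes ranked. They too rest in part on a low embryo, as Myo10_WT replicate 1 was lowest for each of these genes. Etv4, an ETS factor, read 25.4, 27.0, 27.7, 16.0 and 37.4 TPM in Myo10_m1J and 12.99, 40.9, 33.0 and 32.4 TPM in Myo10_WT, with Myo10_WT replicate 1 lowest. Msgn1 was the one gene in both lists.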

How the data were processed

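Levels were read from the deposited table of TPM, made by the authors for 41709 gene symbols in 17 whole embryos. Per the labels' protocols, RNA was extracted with RNeasy Micro columns and libraries were made with the TruSeq RNA Sample Prep v2 kit, which does not mark strand. The genome build is GRCm39 (mm39) per the submitters' processing notes, and which aligner, quantifier and gene models were used is not stated in the sources used here. TPM carries no read depth, so no counting interval or floor is given.

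Groups follow the sample titles. TPM was turned into log2(TPM + 1), with 0.1 as an alternative pseudocount, and limma 3.58.1 (R 4.3.3) was run on genes reaching 1 TPM in 4 or more of the libraries compared (moderated test with a mean-variance trend, Benjamini-Hochberg adjustment over all genes tested, threshold 0.05), after a check on simulated data. All 10 genes passed this filter in every comparison. Disp1 and Myo10 embryos were fitted apart, the wild types in a fit of 8, and the difference of effects in a fit of 17. Intervals are at 95%. Correlations (Python 3.11.15, pandas 2.3.3) used exact permutations. All 10 genes are named, with the targeted genes, the 10 genes most like them at each age, and list members of largest change between the ages or chosen as examples after their values were seen; not all of them are printed. The genes, the 13 other lists and the tests were chosen with earlier results of these data known. Alternatives were the pseudocount, dropping the filter, a filter on mean TPM (5 or more), median-of-ratios scaling, structural, haemoglobin and mitochondrial RNA left out, a fit without the trend, all libraries fitted together, a replicate block and each library left out; leaving out low embryos together was added after seeing the data. The check of the replicate numbers is given with the block. No sample was left out of the results given first.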

Additional observations from a re-analysis of the deposited data

Results flagged for a closer look

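Within single groups, 6 values stood apart from the rest by Dixon's test, among 44 groups of 4 or 5 embryos looked at (10 genes and their mean in 4 groups). Chance alone gives about 1 in 20 for a single look. The 44 looks share embryos and the genes move together, so the count cannot be set against that share. Of the 6 values, 4 were the low end of Disp1_WT replicate 3, with T at 1.32 TPM, Cdx1 at 5.03 TPM, Cdx2 at 3.08 TPM and the mean log2(TPM + 1) of the 10 genes at 2.30. In Disp1_CS_INDEL replicate 1 the low value was Wnt5b at 17.1 TPM. In Myo10_m1J replicate 2 the value that stood apart was high, with Cyp26a1 at 39.1 TPM, and this embryo also held trophoblast and decidua transcripts (216 TPM in sum), whose part in it was not tested. Cdx4 in Disp1_WT replicate 3 (0.065 TPM) was not among them.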

How the results depend on the processing

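Of 821 alternative values over the member differences, the counts of called genes and the member means, 687 were classed as unchanged. For a member difference this means the same sign and side of the threshold. For a count of called genes it means a count close to the one given first, and for a member mean a change smaller than its SD. The 104 reversals of sign were in the mutant comparisons and their difference (100), where no member passed in any setting, and in Wnt3a between the ages (4). Over all genes, the Disp1 count of 4 became 2 without the filter, with a mean TPM filter of 5, with all libraries fitted together or with both low embryos out, and 8 with scaling; it was 1 to 3 with 1 library out (1 without Disp1_CS_INDEL replicate 2, 3 or 4, and 2 without Disp1_CS_INDEL replicate 1 or Disp1_WT replicate 1 or 2). The Myo10 count of 1 became 2 with no filter or structural RNA left out, and was 1 to 3 with 1 library out, the 3 being without Myo10_WT replicate 4. The count for the difference of effects was 8 with no filter, against 3 with it. Signs turned in the Disp1 comparison at a pseudocount of 0.1 (T 0.025, Cdx4 0.032, Nkx1-2 0.0051) and without both low embryos (Sp5 -0.092). They turned in the Myo10 comparison with scaling (Cdx1 0.032, Cdx4 0.15, Evx1 0.059) and with structural RNA left out (Cdx4 0.017). For the ages, Wnt3a was -0.55 with scaling, -0.20 with structural RNA left out and -0.35 without both low wild types. For the difference of effects, Cdx1 was -0.040 with scaling and Cdx4 0.068 at a pseudocount of 0.1. The cause was not tested. The ends of the call for T between the ages were at no filter and without Myo10_WT replicate 2 or 3.

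With 1 library left out at a time, log2 differences ranged as follows. In the Disp1 comparison the ranges were T -0.73 to 0.44, Cdx1 -0.23 to 0.098, Cdx2 -0.89 to 0.27, Cdx4 -1.25 to 0.81, Nkx1-2 -0.52 to 0.38, Wnt3a -0.055 to 0.012, Wnt5b -0.15 to 0.00032, Sp5 -0.031 to 0.15, Cyp26a1 -0.34 to 0.061, Evx1 -0.85 to 0.26. In the Myo10 comparison they were T -0.44 to 0.40, Cdx1 -0.82 to 0.22, Cdx2 -0.42 to 0.30, Cdx4 -0.38 to 0.20, Nkx1-2 -0.49 to 0.33, Wnt3a -0.43 to 0.27, Wnt5b -0.25 to 0.19, Sp5 -0.52 to -0.13, Cyp26a1 -0.055 to 0.18, Evx1 -0.51 to 0.094. Between the ages Wnt3a ranged from -0.38 to 0.32. For the difference of effects they were T -0.86 to 0.41, Cdx1 -0.23 to 0.80, Cdx2 -0.97 to 0.19, Cdx4 -1.21 to 0.85, Nkx1-2 -0.60 to 0.48, Wnt3a -0.29 to 0.41, Wnt5b -0.27 to 0.17, Sp5 0.17 to 0.56, Cyp26a1 -0.41 to -0.012, Evx1 -0.73 to 0.39.

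Samples with the same replicate number did not regularly deviate together (correlations of deviations from -0.29 to 0.46). With so few numbers and mixed values, this check cannot settle whether the numbers pair embryos. With the replicate number as a block, 2 genes were called in the Disp1, 46 in the Myo10 and 10970 in the age comparison, against 4, 1 and 10668 without it. The Myo10 signs of T (-0.014), Cdx2 (-0.077), Nkx1-2 (-0.17) and Wnt3a (-0.13) turned, and Cdx4 passed between the ages. Myo10_WT has no replicate 5, so in the block fit Myo10_m1J replicate 5 adds nothing to the Myo10 differences. Their median was -0.12 with 8 of 10 negative, the same as without that embryo and without a block. In each comparison only the samples numbered 4 correlated best with their own number.

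Read depth is unknown, so levels under 1 TPM, such as Cdx4 in the low E9.5 embryos, are given without a counting error. With 4 or 5 embryos a group and 1 low embryo in most groups, some transcription factor genes had wide intervals. In the Disp1 comparison the interval of Cdx4 spans several-fold differences either way, and that of T is also wide.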
